A study of Mus musculus with 12 samples.

Results

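Non-CG methylation in gene bodies was compared between the cortex of mice carrying a mutant Dnmt3a allele and the cortex of wild-type mice, all at 4 months of age. The 4 libraries of this comparison, 2 of the genotype labelled Dnmt3a mi5 and 2 labelled WT, were taken by their labels from the 12 libraries of the series. The sample titles describe the mutant as a miR29 mutant of DNMT3A, and the known study design is an allele whose miR-29 target site in the Dnmt3a transcript is altered. What "mi5" stands for was not given in the sources used here. All mice were on the C57BL/6 background, the tissue was whole cortex, and the allele is not described as limited to a cell type. The other 8 libraries of the series, 4 of miR29 KO cortex and 4 of WT cortex from postnatal day 40 (P40), served to share an estimate of the spread and as the contrast to the other mutant. The labels do not say whether replicates came from separate litters or preparations, so the p-values below cover only the spread among these libraries.

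DNMT3A is the enzyme that writes most methylation outside CG dinucleotides in neurons, where this mark (mCH, with H standing for A, C or T) builds up after birth and stays high in the adult brain. MicroRNAs of the miR-29 family pair with target sites through the seed near their 5′ end and lower the output of the transcripts they bind, and Dnmt3a is one of their known targets. The mutant therefore separates the regulation of one target from all other targets of the family. The mouse family has 4 genes and 3 distinct mature sequences. They are shown because their shared seed is what the unaltered target site pairs with. In RefSeq (GRCm38.p6) all hold the same bases 2 to 8, printed in capitals:

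mmu-miR-29a-3p: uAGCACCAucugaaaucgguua

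mmu-miR-29b-3p: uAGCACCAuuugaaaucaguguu

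mmu-miR-29c-3p: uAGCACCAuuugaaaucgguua

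The mCH level of a gene is the percentage of its non-CG cytosine calls that were methylated. Libraries WT 1, WT 2, mi5 1 and mi5 2 held 474004605, 440705042, 408922241 and 399564631 calls over all genes, with overlapping genes counted in each. The median gene had 8365, 7943, 6838 and 6978 calls. For a gene at that depth in WT 1 (1.23%), counting error alone gave a 95% Wilson interval of 1.02% to 1.49%, and such intervals cover counting error only. Coverage of Y-linked genes was high in WT 1 and mi5 2 and low in WT 2 and mi5 1, so each genotype had 1 library of each kind. The labels give no sex. The mutated site cannot be checked in these tables, which hold gene totals only.

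The whole distribution of gene-body mCH was higher in the mutant. Averaged over 19849 genes with at least 500 calls in each of the 4 libraries, the level was 1.32% in WT 1, 1.31% in WT 2, 2.35% in mi5 1 and 2.31% in mi5 2. Both mutant libraries lay above both wild-type libraries, and the gap between genotypes was far wider than the gap within either. The mutant mean of 2.33% ± 0.0305 (SD, n = 2) stood against a wild-type mean of 1.32% ± 0.00561 (SD, n = 2), a difference of 1.01 percentage points and a ratio of 1.77. In an exact two-sided permutation test over samples p was 0.333, the smallest value that 2 against 2 can give. The ratio was 1.75 between the libraries of high Y coverage and 1.79 between those of low Y coverage. The lowest levels, which include failed bisulfite conversion, moved little: the 1st percentile of genes was 0.235% and 0.217% in wild type and 0.280% and 0.247% in the mutant, a difference of 0.0376 points. This percentile was taken over genes with as few as 500 calls in a library, so counting error enters it too. Conversion rates from the lambda spike-in were not used here, and the part of conversion in the difference between genotypes was not tested.

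Gene by gene, the change was almost entirely in one direction. In a quasi-binomial model whose dispersion was moderated with limma, 11637 of 19849 genes rose (58.6%) and 0 fell (0%) at an adjusted p under 0.05, while 12858 genes had an unadjusted p under 0.05 (64.8%). The model borrows its spread from all 12 libraries. Fitted to the 4 libraries alone, it called 14555 genes higher (73.3%) and 5 lower (0.0252%), and limma on percent levels called 14338 higher and 33 lower. Both mutant libraries exceeded both wild-type libraries in 86.2% of genes and lay below both in 1.03%. Log2 odds ratios had a median of 0.83 and were above 0 in 95.9% of genes. Every library mattered for the count at this sample size: it was 4668 without WT 1, 6305 without WT 2, 7703 without mi5 1 and 8523 without mi5 2. With each library centred on its own median, limma called 1 gene as rising more than the shift shared by all genes (0.00504%) and 2 as rising less (0.0101%), while 16.8% of genes had an unadjusted p under 0.05.

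The rise depended on where a gene stood in young wild-type cortex. Genes were put into deciles by their mCH level in the 4 WT libraries of P40, which take no part in the contrast at 4 months. In the lowest decile the pooled level (methylated calls over all calls of its genes) was 0.473% and 0.461% in wild type and 0.593% and 0.551% in the mutant, a ratio of 1.23. In the middle of the range, the fifth decile, it was 1.18% and 1.16% against 2.10% and 2.07%, a ratio of 1.79. In the highest decile it was 2.49% and 2.53% against 4.43% and 4.39%, a ratio of 1.76. The ratio thus rose steeply over the lowest deciles and was nearly level above them, with its highest value, 1.84, in the seventh. Between these ends the absolute gap grew from 0.105 to 1.91 points. The share of genes called higher went from 1.96% in the lowest decile to 89.1% in the highest. Leaving out 1 library gave 1 to 21 such genes in place of 39 in the lowest decile and 1123 to 1535 in place of 1769 in the highest. The floor of each library weighs more on low levels, and its part in the low ratio of the lowest decile was not tested.

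**Figure D1:**
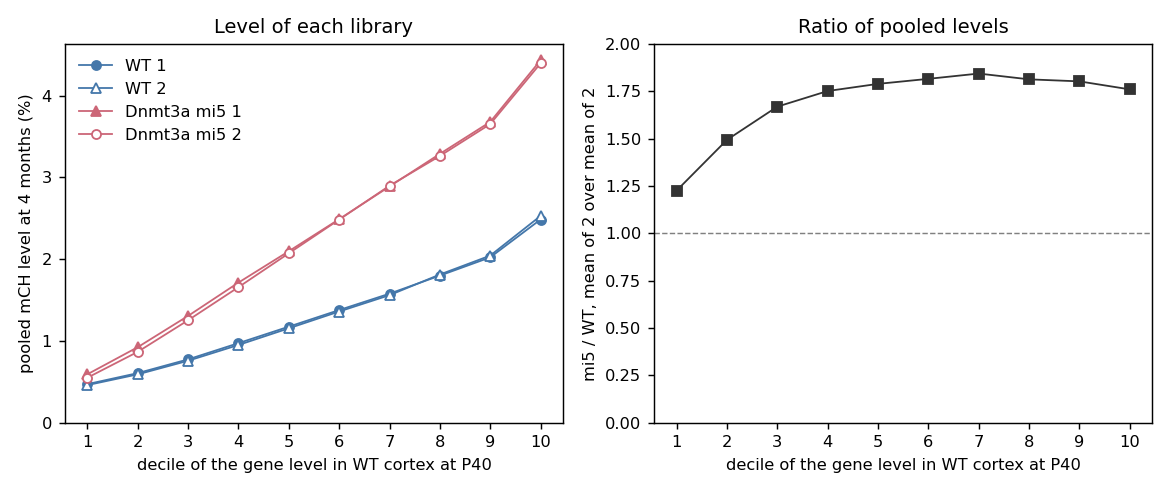
Left, pooled mCH level (%) at 4 months of each library against the decile of the gene level in WT cortex at P40. Right, the ratio of the mutant mean to the wild-type mean of these levels, each over 2 libraries. The 2 libraries of a genotype overlie each other, and the ratio climbs from 1.23 to 1.84 before it levels off.

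Precision came from the number of calls. Over quintiles of calls the pooled ratio stayed between 1.75 and 1.77, while the share of genes called higher went from 22.8% to 90.9% and the SD of the log2 odds ratio over genes fell from 0.63 to 0.15. Single genes are therefore described mainly from 4086 deeply covered genes, those with at least 20000 calls in each of the 4 libraries and a symbol that is not a provisional one. Of these, 3719 rose (91%) and 0 fell (0%). The count was 2085 to 3186 when 1 library was left out, lowest without WT 1. The fit to the 4 libraries alone called 3941 higher (96.5%). Libraries of the genotypes did not overlap in 98.7%, and 99.8% had a log2 odds ratio above 0. The median was 0.85, with 90% of these genes between 0.59 and 1.04.

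All 10 genes with the most calls rose with non-overlapping libraries. Ptprd, a receptor phosphatase of the synapse, had 1.07% in WT 1, 1.07% in WT 2, 2.10% in mi5 1 and 1.97% in mi5 2 (log2 odds ratio 0.94, SE 0.22, adjusted p = 0.00341). Cntnap2, a neurexin-like adhesion protein of axons, had 1.59% and 1.57% in wild type and 3.10% in both mutant libraries (0.997, SE 0.21, adjusted p = 0.00300). Fhit, a hydrolase gene in a fragile region of the genome, started higher, at 2.29% and 2.35%, and reached 4.14% and 4.08% (0.85, SE 0.18, adjusted p = 0.00300). In each of these the mutant libraries stood well above the wild-type ones, and the replicates were close. Magi2, Macrod2, Lrp1b, Rbfox1, Csmd1 and Nrxn3 gave log2 odds ratios between 0.84 and 1.01. The call of Csmd1 was lost without WT 1 (adjusted p = 0.0536). Magi2 is a synaptic scaffold, Lrp1b an endocytic receptor, Rbfox1 a neuronal splicing factor and Nrxn3 a presynaptic adhesion protein. The tenth gene, Dmd, is X-linked and is described with such genes below.

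The largest rises among deeply covered genes went past a doubling of the odds. Zeb2, a transcription factor of interneuron and glial development, had 0.927% and 0.844% in wild type and 2.39% and 1.93% in the mutant. The log2 odds ratio was 1.30 (SE 0.22, adjusted p = 0.00300). Cyth3, an exchange factor for ARF GTPases, went from 1.41% and 1.37% to 3.23% and 3.45% (1.29, SE 0.26, adjusted p = 0.00300). Arhgap35, a GTPase-activating protein, went from 0.809% and 0.735% to 1.85% and 1.77% (1.24, SE 0.27, adjusted p = 0.00300). In all of these the libraries of the genotypes were far apart, while mi5 1 exceeded mi5 2 by a visible margin in Zeb2. Itpk1 (an inositol phosphate kinase), Efr3a (a membrane anchor of a lipid kinase), Mosmo (a modulator of Hedgehog signalling), Ppm1e (a phosphatase) and Dip2a followed with 1.20 to 1.23. Since these were picked as the extremes of 4086 genes, their sizes are a description. After centring, none of these 8 was called above the common shift, and Cyth3 came nearest (adjusted p = 0.0954).

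A small set of deeply covered genes had a log2 odds ratio near or below 0. With the limit set after the values were seen, 29 of 4086 genes (0.71%) had a log2 odds ratio under 0.2, and none of them was called in the model of 12 libraries or in that of 4. All lay low in wild type, between 0.321% and 0.698%. By name 11 are zinc finger (Zfp) genes or a pseudogene of one, which are neighbours in 1 run of deeply covered genes. Another 6 are Skint genes, also in 1 run, which code for butyrophilin-like proteins of skin and thymus. The remaining ones are 2 Slc22a transporters, 2 vomeronasal receptor genes, 2 Pramel genes, 2 Pisd pseudogenes, and Sfi1, Ugt1a1, Sp110 and Usp9x. Most of these families hold near-identical copies, so how reads were split among them is uncertain.

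The precision of these estimates was uneven. Skint5 had 0.437% and 0.431% in wild type and 0.435% and 0.394% in the mutant, over 238589 calls a library on average. Its log2 odds ratio was -0.06, with a 95% interval of -0.86 to 0.73 in the model of 12 libraries and of -0.26 to 0.13 in the fit of the 4 libraries alone, beside the median rise of 0.83. Zfp982, with 500970 calls, had 0.523%, 0.511%, 0.566% and 0.491% in the same order of libraries (0.03, intervals of -0.64 to 0.71 and -0.12 to 0.18 in the same 2 fits). By their P40 wild-type levels, 0.410% and 0.513%, Skint5 lay in the lowest decile and Zfp982 in the second. The median log2 odds ratios of these deciles were 0.33 and 0.60. In each gene the interval of the model of 12 libraries included the value of its decile, and that of the 4 libraries did not. The mutant libraries overlapped the wild-type ones in both genes. Sfi1, a centrosome gene chosen here after its values were seen, had 599164 calls and 0.604%, 0.622%, 0.652% and 0.610%, again overlapping. Pramel47, also chosen after its values were seen, had 23145 calls and intervals of -0.69 to 1.07 and -0.32 to 0.69, so the model of 12 libraries did not set it apart from the median rise. The lowest estimate was that of Skint10, at 0.459% and 0.488% against 0.426% and 0.396% (-0.20, adjusted p = 0.657). Zfp980, Zfp600, Skint3, Slc22a28, Zfp981 and Zfp987 lay between -0.18 and -0.04, and none was called. In Skint10, Zfp980 (0.515% and 0.497% against 0.452% and 0.444%), Zfp600 and Slc22a28 both mutant libraries lay below both wild-type ones, in genes picked for their low estimates. Over all 11 Skint genes the pooled level was 0.460% and 0.451% in wild type and 0.490% and 0.449% in the mutant, with 0 called higher or lower, and the fit of the 4 libraries called 1 higher.

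Other deeply covered genes at low levels were called higher. Of 235 deeply covered genes with a wild-type mean under 0.7%, 97 rose (41.3%, beside 91% of all deeply covered genes) and 191 were called in the fit of the 4 libraries alone. The count of 97 depended on every library: 3 were called without WT 1, 4 without WT 2, 10 without mi5 1 and 37 without mi5 2. Vsnl1, a neuronal calcium sensor, had 0.733% and 0.643% in wild type and 1.47% and 1.36% in the mutant (1.05, SE 0.27, adjusted p = 0.00446). Cramp1l, a chromatin gene, went from 0.380% and 0.491% to 0.945% and 0.865% (1.06, SE 0.37, adjusted p = 0.0207), a call lost without any 1 of the 4 libraries (adjusted p = 0.0550 to 0.143). Both were chosen after their values were seen. Their P40 wild-type levels, 0.650% and 0.677%, were higher than those of Skint5 (0.410%) and Zfp982 (0.513%).

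**Figure D2:**
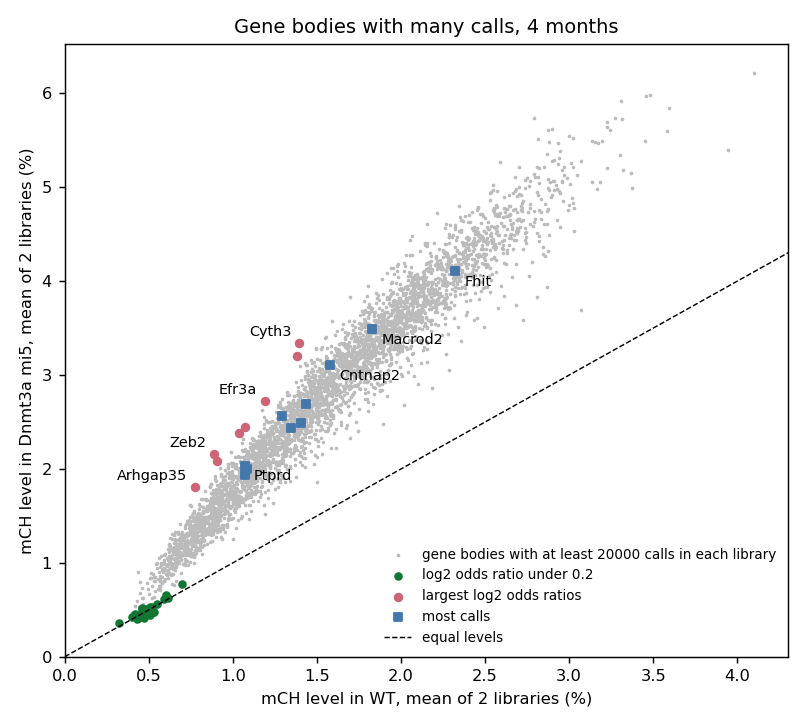
Mean mCH level (%) over 2 mutant libraries against the mean over 2 wild-type libraries, 1 point for each of 4086 deeply covered genes. Nearly all points lie above the dashed line of equal levels, and the 29 genes with a log2 odds ratio under 0.2 (green) lie on or near it at the low end.

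Each list of marker genes for a cortical cell class held members that rose. The libraries are bulk cortex, so a change cannot be assigned to a cell class, and altered methylation per cell and an altered mix of cells cannot be told apart. Lists are described by the members called higher, with the count's range when 1 library is left out, beside the 58.6% of all genes; 0 members of these lists fell. Among excitatory neuron markers 12 of 19 rose (63.2%, 8 to 10), among inhibitory neuron markers 14 of 21 (66.7%, 8 to 13), among astrocyte markers 14 of 18 (77.8%, 6 to 11), among oligodendrocyte lineage markers 13 of 16 (81.2%, 6 to 11), among microglia markers 9 of 14 (64.3%, 3 to 6) and among vascular markers 13 of 15 (86.7%, 5 to 12). The shares in excitatory neuron, microglia and inhibitory neuron markers are near that of all genes and are no result about those markers. Astrocyte, oligodendrocyte lineage and vascular markers had pooled wild-type means of 2.13%, 1.84% and 2.11%. In the eighth and ninth P40 deciles, at 1.81% and 2.03%, 83.2% and 88.4% of genes were called. The shares of these lists are thus not above those of genes at like levels. The log2 odds ratio was above 0 in 18 of 19 excitatory and 20 of 21 inhibitory neuron markers. The lowest value of each range came without WT 1. Median log2 odds ratios ran from 0.76 in excitatory neuron markers to 0.90 in microglia markers, on both sides of the 0.83 of all genes.

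Within the neuronal markers the deepest members had tight replicates. Foxp2, a transcription factor of deep-layer excitatory neurons, had 2.20% and 2.34% in wild type and 3.79% and 3.67% in the mutant (0.74, SE 0.17, adjusted p = 0.00312). Erbb4, the neuregulin receptor of interneurons, had 1.61% and 1.58% against 2.90% and 2.75% (0.85, SE 0.19, adjusted p = 0.00303). Sox6, an interneuron transcription factor, stood high in both genotypes, at 4.08% and 4.12% against 6.45% and 5.98% (0.63, adjusted p = 0.00304). The genotypes did not overlap in any of these. Bcl11b, a marker of subcerebral projection neurons, rose less (0.56, adjusted p = 0.0209), and its call was lost without any 1 of the libraries (adjusted p = 0.0716 to 0.120). Sox6 and Bcl11b were chosen after their values were seen, as were Mog, Tmem119 and Ctss below.

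Of the glial and vascular markers given here, all but Ctss were called higher. Mog, a myelin surface protein, went from 0.888% and 1.06% to 2.44% and 3.23% (1.56, SE 0.37, adjusted p = 0.00338). Mbp, the myelin basic protein gene, went from 1.99% and 2.18% to 3.48% and 3.28% (0.71, adjusted p = 0.0145), lost without WT 1, WT 2 or mi5 1 (adjusted p = 0.0562 to 0.0987). P2ry12, a purine receptor of microglia, went from 2.04% and 2.10% to 3.90% and 3.74% (0.91, adjusted p = 0.00300). All 3 had separate genotypes, but the mutant libraries of Mog, which had 4315 calls, lay far from each other. Tmem119, another microglial gene, had 1.32 on the log2 odds scale from 1820 calls (adjusted p = 0.0273), lost without any 1 library (adjusted p = 0.0590 to 0.113). Ctss, a lysosomal protease of microglia, had the highest wild-type level named here, 4.10% and 4.53%, with 5.15% and 4.87% in the mutant, and was not called (0.23, adjusted p = 0.205), although the fit of the 4 libraries alone called it (adjusted p = 0.0274). For astrocytes, Slc4a4, a bicarbonate transporter, went from 1.90% in both to 3.05% and 2.96% (0.68, adjusted p = 0.0117), lost without WT 1, WT 2 or mi5 1 (adjusted p = 0.0581 to 0.0749). For endothelium, Flt1, a VEGF receptor, went from 1.62% and 1.74% to 3.22% and 3.18% (0.95, adjusted p = 0.00489), lost without WT 1 (adjusted p = 0.0539).

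Axon guidance genes rose throughout their list. All 36 were called (100%), and 28 to 33 were with 1 library left out, beside 58.6% of all genes and 90.9% of the quintile of genes with the most calls. Their pooled level was 1.82% and 1.86% in wild type and 3.34% and 3.29% in the mutant, and the libraries of the genotypes did not overlap in any of the 36. Of all deeply covered genes 91% were called, and whether the share of this list differs was not tested. Its median log2 odds ratio, 0.90, was near the 0.91 of the eighth P40 decile, at 1.80% and 1.81% in wild type. The size of the rise is thus near that of genes at like levels and is no result about this list. Dcc, the netrin receptor, went from 1.76% and 1.79% to 3.36% and 3.33% (0.94, SE 0.19, adjusted p = 0.00300). Among members chosen after their values were seen, Ephb2, an ephrin receptor, had the largest log2 odds ratio (1.12, adjusted p = 0.00300). Efnb2, an ephrin, had the smallest (0.57, adjusted p = 0.0260), lost without any 1 library (adjusted p = 0.0783 to 0.119).

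Receptor, adhesion and channel genes were called in shares between that of all genes and that of the quintile with the most calls. Presynaptic genes were called in a share of 50%, near the 58.6% of all genes. Their median level was 1.03% in WT 1 and 0.893% in WT 2. In the fourth P40 decile, with medians of 0.932% and 0.901%, 52.8% of genes were called. By pooled level, 1.27% and 1.32%, presynaptic genes lay between the fifth and sixth deciles, where 66.6% and 74.2% were called. Their median of 27069 calls lay between the medians of the 2 upper quintiles of calls, where 76.2% and 90.9% were called. Whether their share is low thus depends on the match. Among glutamate and GABA receptor genes 31 of 37 rose (83.8%, 17 to 28 with 1 library left out), among synaptic adhesion and scaffold genes 23 of 30 (76.7%, 14 to 21), among voltage-gated ion channel genes 29 of 35 (82.9%, 11 to 24) and among presynaptic release genes 14 of 28 (50%, 4 to 11). Grm7, a presynaptic metabotropic receptor, went from 1.19% and 1.16% to 2.33% and 2.27% (0.99, adjusted p = 0.00300). Its genotypes did not overlap, and its replicates were close. Grin2b, an NMDA receptor subunit, rose less, from 0.879% and 0.901% to 1.38% and 1.33% (0.61, adjusted p = 0.0313), lost without any 1 library (adjusted p = 0.0933 to 0.145). Cacna2d3, a calcium channel subunit, had 0.70 (adjusted p = 0.00749), lost without WT 1 (adjusted p = 0.0618). Hcn2, a pacemaker channel, had 1.22 (adjusted p = 0.0135), lost without WT 1, WT 2 or mi5 1 (adjusted p = 0.0628 to 0.0914). Grm7, Grin2b, Hcn2 and Snap25 were chosen after their values were seen.

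The presynaptic list was mixed. Erc2, an active-zone scaffold, went from 1.22% in both to 2.15% and 2.16% (0.83, adjusted p = 0.00462), lost without WT 1 (adjusted p = 0.0516). Snap25, the SNARE protein of vesicle fusion, had 0.671% and 0.627% in wild type and 0.780% and 0.744% in the mutant, and was not called (0.23, adjusted p = 0.476). Its genotypes did not overlap.

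Few oxidative phosphorylation, ribosomal protein and Hox genes were called, and all 3 lists had low wild-type levels. Their median levels in WT 1 and WT 2 were 0.491% and 0.476%, 0.432% and 0.375%, and 0.394% and 0.485%, in that order. In the lowest and second P40 deciles, with WT 1 medians of 0.451% and 0.585%, 1.96% and 12.4% of genes were called. By median level the shares of the 3 lists, given below, are near these and are no result about those genes. Of 35 oxidative phosphorylation genes 3 rose (8.57%, beside 44.5% of all genes in the second quintile of calls, where their median lies, and 1 with any 1 library left out), although their pooled level, 0.675% and 0.654% in wild type, was 1.18% and 1.06% in the mutant, a ratio of 1.68. The deepest of them, Ndufs4, a subunit of complex I, went from 1.16% and 1.14% to 2.40% and 2.15% (0.996, adjusted p = 0.00310). Of 60 tested cytosolic ribosomal protein genes (of 85 listed) 3 rose (5%, 0 to 2), with 0.501% and 0.434% against 0.627% and 0.535%, a ratio of 1.24. Their members had a median of 1190 calls, in the lowest quintile of calls, where 22.8% of genes were called. Of 29 tested Hox genes (of 39 listed) 4 rose (13.8%, 0 to 1), with 0.558% and 0.598% against 0.831% and 0.841%. Rps15a (0.29, adjusted p = 0.583) and Hoxa3 (0.33, adjusted p = 0.469) were not called.

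Immediate early genes, which neurons switch on with activity, held 6 of 17 called members (4 to 6 with 1 library left out) at a median of 1812 calls. Their share, 35.3%, stands beside 58.6% of all genes and 22.8% of the quintile with the fewest calls, whose median was 1461 calls. All 17 had a log2 odds ratio above 0. Bdnf, a neurotrophin, went from 2.03% and 1.81% to 3.48% and 3.04% (0.78, SE 0.17, adjusted p = 0.00300). Homer1, a postsynaptic scaffold, went from 0.830% and 0.722% to 1.36% and 1.20% (0.72, adjusted p = 0.0190), lost without WT 1, WT 2 or mi5 1 (adjusted p = 0.0766 to 0.118). In both genes the genotypes were separate. Arc, a regulator of AMPA receptor traffic, had 0.410%, 1.01%, 0.871% and 1.52% over 1273 calls a library, with overlapping genotypes and no call (adjusted p = 0.352). Bdnf and Arc were chosen after their values were seen. Among collagen and matrix genes 22 of 24 rose (91.7%, 11 to 19 with 1 library left out). Their median number of calls lies in the quintile of genes with the most calls, where 90.9% were called. The share of this list is near that value and is no result about these genes. Col25a1, a membrane collagen of neurons, went from 2.12% and 2.28% to 3.84% and 3.90% (0.84, adjusted p = 0.00300), and Col5a3, chosen after its values were seen, had the largest log2 odds ratio of the list (1.13, adjusted p = 0.00300).

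**Figure D3:**
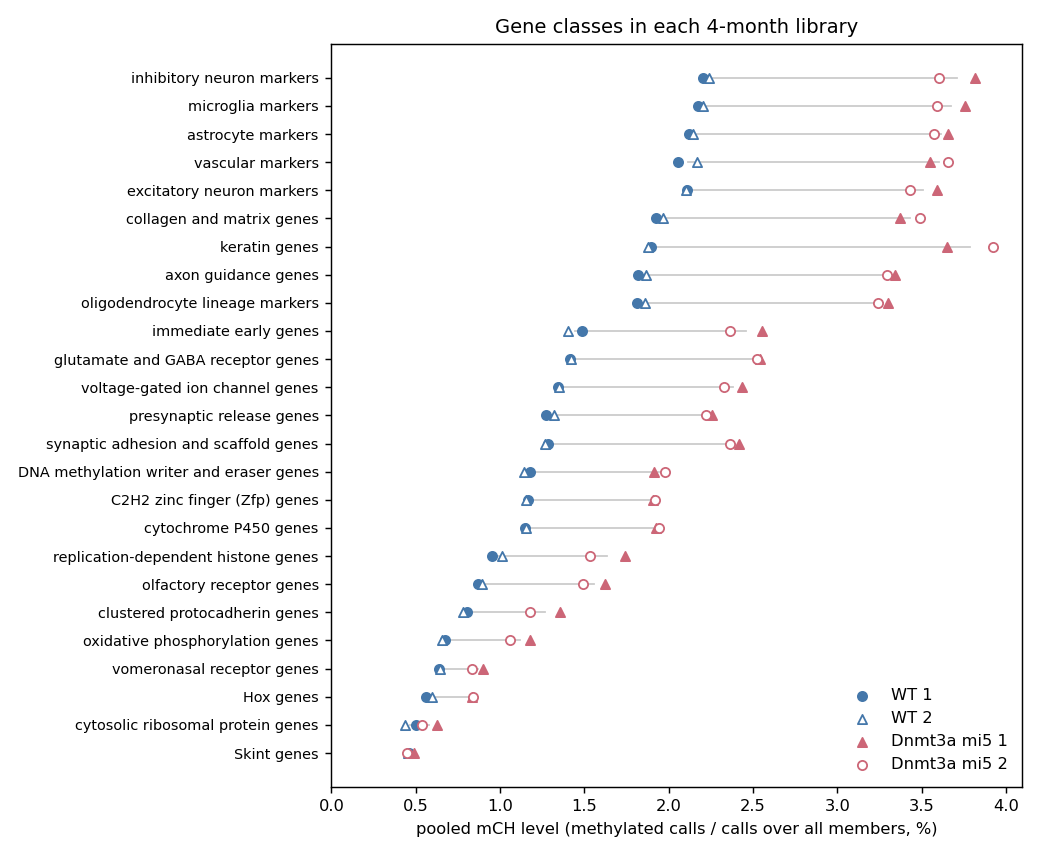
Pooled mCH level (%) of each gene list in each of the 4 libraries, ordered by the wild-type mean, with a line joining the genotype means. The mutant libraries lie to the right of the wild-type ones in every list but the Skint genes, where they overlap.

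Dnmt3a itself carried little mCH. Its gene body had 0.669% and 0.676% in wild type and 1.06% and 1.15% in the mutant, so the genotypes did not overlap. The log2 odds ratio was 0.73 (SE 0.32), and the adjusted p of 0.0540 missed the threshold in the model of 12 libraries, while the fit of the 4 libraries alone passed it (adjusted p = 3.33e-05). These are levels of methylation on the gene, not of its RNA or protein, which were not measured here. Among 11 genes that write, copy or remove DNA methylation 6 rose, and 0 to 3 did with 1 library left out.

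The share called among these 11 genes, 54.5%, was near the 58.6% of all genes and is no result about them. Members other than Dnmt3a had log2 odds ratios on both sides of the median of all genes, 0.83. Dnmt1, the maintenance methyltransferase, went from 0.687% and 0.862% to 1.53% and 1.40% (0.93, adjusted p = 0.0200), and Dnmt3b, the other de novo enzyme, from 2.34% and 2.10% to 3.36% and 4.36% (0.83, adjusted p = 0.0132). Tet1 and Tet2, which oxidise methylcytosine, gave 0.79 (adjusted p = 0.0194) and 0.80 (adjusted p = 0.0106). The genotypes were separate in all 4. The fit of the 4 libraries alone called each of them (adjusted p = 1.78e-05 for Dnmt1, 4.65e-05 for Dnmt3b, 8.30e-07 for Tet1 and 5.59e-07 for Tet2). In the model of 12 libraries none of these calls was robust to leaving out 1 library. The log2 odds ratio was then 0.77 in Dnmt1, 0.61 in Dnmt3b, 0.65 in Tet1 and 0.84 in Tet2. WT 1, mi5 2, WT 2 and WT 1 were left out in that order. Leaving out WT 1 or WT 2 ended each of the 4 calls. Leaving out mi5 1 also ended those of Dnmt1 (adjusted p = 0.0872) and Tet1 (0.0820), and leaving out mi5 2 those of Dnmt1 (0.0558), Dnmt3b (0.139) and Tet1 (0.0525). Without WT 1 Dnmt3b had 0.0607 and Tet1 0.0618, and without WT 2 Dnmt1 had 0.0610, Dnmt3b 0.0786 and Tet2 0.0701. Tet3, the member with the most calls, had 0.842% and 0.887% against 1.22% and 1.21% (0.50, adjusted p = 0.120) and passed in the fit of the 4 libraries alone (adjusted p = 0.000529). The remaining 5 members ranged from 0.13 in Gadd45a to 1.02 in Dnmt3l, and 2 of them were called. Apart from Dnmt3a and Tet3, the members named here were chosen after their values were seen.

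Genes that looked X-linked by their coverage differed more between replicates than other genes did. Positions could not be used, so 728 genes were called X-like because the libraries of low Y coverage covered them 1.5 to 2.7 times as deeply as the others. Of these 68 rose (9.34%), beside 11569 of 19121 other genes (60.5%). The call moved with single libraries: 17 X-like genes were called without WT 1, 2 without WT 2, 213 without mi5 1 and 13 without mi5 2. Their pooled level was 1.43% in WT 1 and 2.51% in mi5 2, the libraries of high Y coverage, and 0.944% in WT 2 and 1.56% in mi5 1, those of low Y coverage. The low-Y library thus had 0.659 of the high-Y level in wild type and 0.622 in the mutant, while for other genes these ratios were 1.01 and 1.02.

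The X-like genes were also compared between libraries of like Y coverage, 1 library against 1. The ratio of mutant to wild type was 1.75 between the high-Y libraries and 1.66 between the low-Y libraries, beside 1.77 and 1.79 for other genes. In points the rise was 1.08 and 0.620, beside 1.20 and 1.23 for other genes, and whether these differ was not tested. In a fit with like Y coverage as a block, added after the data were seen, 473 of 728 X-like genes were higher and 2 lower, beside 14800 of 19121 other genes higher and 10 lower. Dmd, the dystrophin gene, had 1.29% in WT 1, 0.870% in WT 2, 1.55% in mi5 1 and 2.46% in mi5 2. The genotypes did not overlap, but the low-Y mutant library lay closer to WT 1 than to the other mutant. Its log2 odds ratio was 0.85 (SE 0.33, adjusted p = 0.0352), a call lost in the fit of the 4 libraries alone (adjusted p = 0.229), and without WT 1 (0.0600), WT 2 (0.339) or mi5 2 (0.172). Il1rapl1, a synaptic adhesion gene chosen after its values were seen, had 1.23%, 0.813%, 1.42% and 2.18% in the same order (0.78, adjusted p = 0.0452). Its call was lost in the fit of the 4 libraries alone (adjusted p = 0.241), and without WT 1 (0.0647), WT 2 (0.405) or mi5 2 (0.198).

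**Figure D4:**
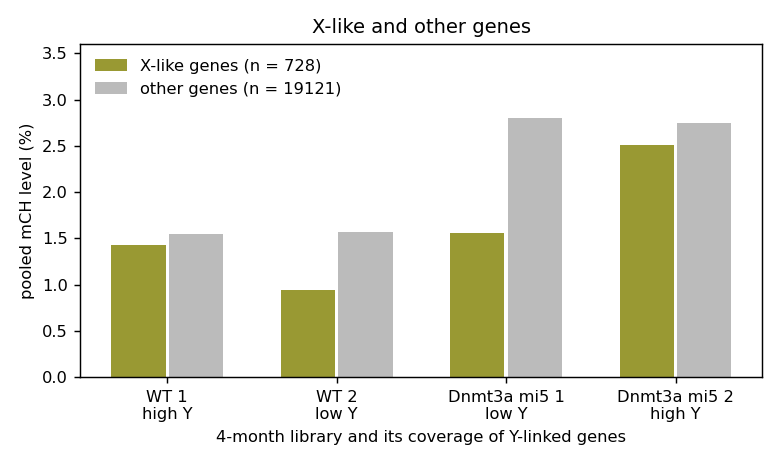
Pooled mCH level (%) of 728 X-like and 19121 other genes in each 4-month library, labelled with its coverage of Y-linked genes. In the low-Y libraries the X-like bar is far shorter than the bar of other genes, in both genotypes, while the mutant exceeds the wild type of like Y coverage in each pair.

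The other mutant of the series lacks miR-29, and its cortex was sampled at P40 with its own wild-type controls, so no library is shared, but mutant and age cannot be told apart. The mean gene level there was 1.39% ± 0.124 (SD, n = 4) in wild type and 2.16% ± 0.316 (SD, n = 4) in the KO, a ratio of 1.56 beside 1.77 for the Dnmt3a mutant. KO libraries ran from 1.72% to 2.46%, a range that holds mi5 1 (2.35%) and mi5 2 (2.31%). Wild-type libraries of P40 ran from 1.28% to 1.53%, which holds WT 1 (1.32%) and WT 2 (1.31%). In the KO 15167 of 19826 genes were higher (76.5%) and 9 lower (0.0454%). The median log2 odds ratio was 0.65, beside 0.83 for the Dnmt3a mutant, and the mutant's change exceeded that of the KO in 77.7% of genes, with a median difference of 0.18. Genes share the shift of their libraries, so the 77.7% is a description and not a count of independent results. For no gene did the 2 changes differ at an adjusted p under 0.05 (0%) in the quasi-binomial model, with 289 genes at an unadjusted p under 0.05 (1.46%). limma on percent levels called 3, and on log2 levels, on centred levels and for genes with at least 5000 calls the count was 0. A p that misses the threshold does not show that the changes were equal, and 2 libraries a genotype leave wide intervals.

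Across 4086 deeply covered genes the log2 odds ratios of the mutants had a Pearson correlation of 0.65 and a Spearman rank correlation of 0.54, given as a description, since genes are not independent and share base composition and level. The genes with the smallest p for a larger change in the Dnmt3a mutant were Hdlbp, an RNA-binding protein of lipid transport (1.10 beside 0.17 in the KO), Efr3a (1.22 beside 0.47), Arhgap35 (1.24 beside 0.37), Bsn, an active-zone scaffold (0.71 beside 0.13) and Gnas, a G protein subunit (1.20 beside 0.55). Those for a smaller change were Gap43, a growth-cone protein (0.71 beside 0.98), Adgre1, a macrophage receptor (0.51 beside 0.84), Skint10 (-0.20 beside 0.22), Scrn1 (0.49 beside 0.70) and Tmeff1 (0.71 beside 0.91). All 10 had an adjusted p of 0.998, so none is shown to differ. Among them the mutant's own rise was not called in Adgre1, Skint10 and Scrn1. It was lost in Hdlbp without WT 1 (adjusted p = 0.0504), in Bsn and Tmeff1 without WT 1 (0.0945 and 0.0917) or mi5 1 (0.0546 and 0.0508), and in Gap43 without WT 1, WT 2 or mi5 2 (0.0667 to 0.104). The Skint genes had a median of 0.06 on the log2 odds scale in the Dnmt3a mutant and of 0.16 in the KO.

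**Figure D5:**
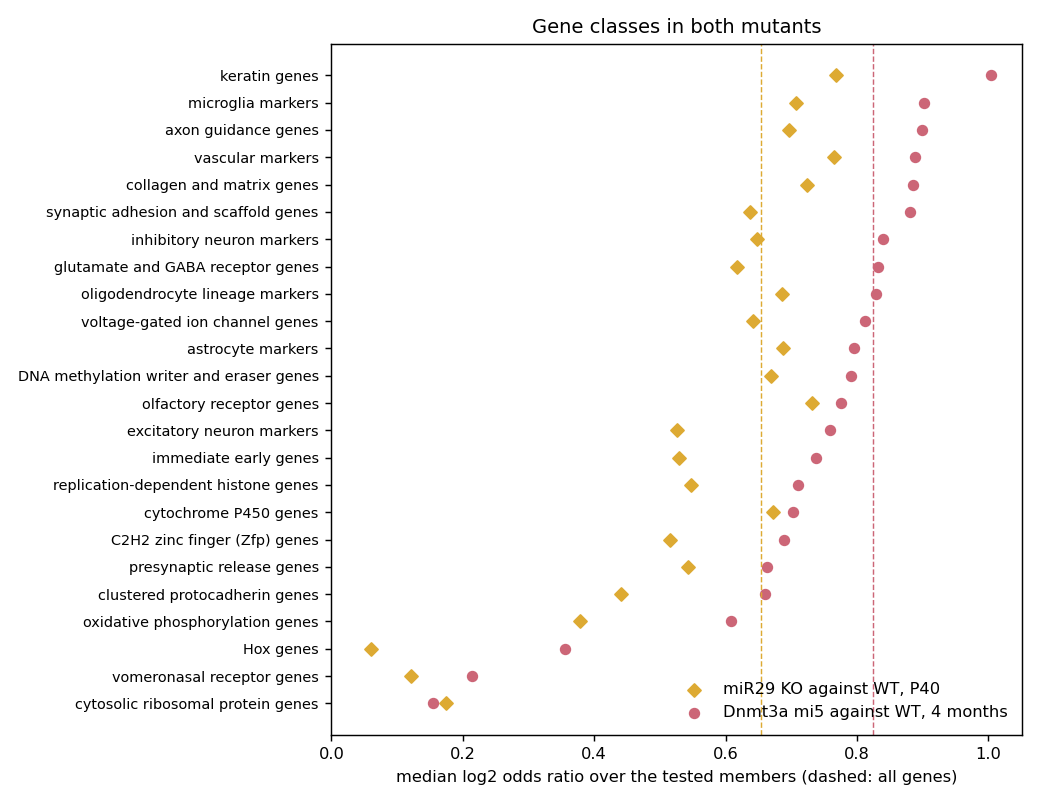
Median log2 odds ratio of each gene list in the Dnmt3a mutant at 4 months (circles) and in the miR29 KO at P40 (diamonds), with dashed lines at the medians of all genes, 0.83 and 0.65. Of the 24 lists plotted, which do not include the Skint genes, the circle lies to the right of the diamond in all but the cytosolic ribosomal protein genes.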

How the data were processed

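Cortical DNA was bisulfite sequenced per the labels' protocols, with unmethylated lambda DNA spiked in. BSMAP and the mm9 build are named for the reads, per the submitters' processing notes, which give no version. For each of 36672 transcripts the authors deposited a whole count of non-CG calls that were methylated, and an expected count of all non-CG calls. Of these totals 56.0% to 62.2% were whole in the libraries of 4 months, and their derivation was not given in the sources used here. They were rounded.

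Symbols came from a RefSeq table of GRCm38.p6, used for names and for which genes neighbour each other. Left out were 300 rows with no symbol and 1395 rows of 410 repeated identifiers. Each of 23882 genes was represented by its transcript of most calls, and 19849 had at least 500 calls in each 4-month library. Only 78.8% of these matched a RefSeq promoter window, under the minimum of 80%, so promoter composition was not used. Overlapping genes share calls.

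Groups came from the labels. The calls of each gene in all 12 libraries were fitted with a quasi-binomial logistic model of group means, with the dispersion moderated by limma 3.58.1 (squeezeVar, trend, robust) in R 4.3.3, and Benjamini-Hochberg adjustment over all genes tested. The threshold was an adjusted p of 0.05, effects are log2 odds ratios, and "lost" means above that threshold. Median overdispersion was 5.13 over the 12 libraries and 1.41 over the 4. Mean levels were compared by exact permutation. The model was tested on simulated calls. Alternatives were a fit of the 4 libraries, limma on levels (pseudocount 0.1%), centring, other minimum calls, blocks, and leaving out each library. Replicates differed by more than sampling noise (chi-square of 2.73 a gene in wild type and 4.27 in the mutant).

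Named genes are, among genes with at least 20000 calls in each 4-month library and no provisional symbol (Gm, Rik, LOC and the like), the 10 with most calls, the 8 largest non-overlapping rises, the 8 smallest changes and the 5 with the smallest p in each direction for the difference from the KO, then the member of each of 24 lists with most calls, genes that fell (none), and Dnmt3a. One of these genes is not reported here. Others are marked as chosen after their values were seen. The members and lists were chosen with earlier results of these data known. Other steps ran in Python 3.11.15 with pandas 2.3.3, numpy 2.4.6, matplotlib 3.10.9 and scipy 1.17.1.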

Additional observations from a re-analysis of the deposited data

How the results depend on the processing

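The higher mean level kept its direction in every alternative tried. The difference of 1.01 points was 1.20 with calls pooled over genes, 0.977 after subtracting each library's 1st percentile (ratio 1.90), 1.10 with at least 5000 calls and 0.971 with no minimum, and 0.993 to 1.04 with 1 library left out. The count of changed genes, 11637, was 3 with centring on library medians, which takes out the common shift, and 4669 to 8523 with 1 library left out, where a lone library is assumed to vary like the other groups. Other settings gave 9016 (of genes with at least 5000 calls) to 15285 (the block of like Y coverage). A replicate block, with the replicate numbers of the labels, gave 14469. Same-numbered libraries did not deviate together (correlation -0.086, without X-like genes -0.0091). With 2 pairs this cannot show whether same-numbered samples shared a litter, preparation or run. The block ended the calls of Dmd (adjusted p = 0.389) and Il1rapl1 (0.413) and gave calls to Dnmt3a (9.19e-05), Tet3 (0.00105), Scrn1 (0.00121), Adgre1 (0.000300) and Ctss (0.0355), as the fit of the 4 libraries without it did. Among 80 genes examined singly, that fit of the 4 libraries ended only the calls of Dmd and Il1rapl1. It kept the other calls that were lost with 1 library left out. The count of genes whose change differed from the KO was 3 with limma on percent levels and 0 to 0 with 1 library left out.

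Centring turned 39 of 80 genes examined singly to a log2 value below the common shift: Adgre1 -0.34, Arc -0.073, Bcl11b -0.29, Bdnf -0.075, Bsn -0.15, Cacna2d3 -0.16, Col25a1 -0.021, Csmd1 -0.013, Ctss -0.59, Cyp7b1 -0.0072, Dnmt3a -0.17, Dnmt3b -0.045, Efnb2 -0.27, Erbb4 -0.020, Erc2 -0.036, Fhit -0.012, Foxp2 -0.11, Gap43 -0.15, Grin2b -0.25, H2bc6 -0.14, Homer1 -0.15, Hoxa3 -0.56, Il1rapl1 -0.052, Krt80 -0.12, Mbp -0.14, Nrxn3 -0.026, Pcdha1 -0.23, Rps15a -0.57, Scrn1 -0.35, Sfi1 -0.77, Slc4a4 -0.17, Snap25 -0.60, Sox6 -0.22, Tet1 -0.062, Tet2 -0.068, Tet3 -0.36, Tmeff1 -0.14, Vmn2r60 -0.78 and Zfp982 -0.78. None of them was called there. Leaving out 1 library turned the sign only of genes not called, which then ranged from -0.0067 to 0.090 in Sfi1, -0.33 to 0.053 in Skint3, -0.20 to 0.045 in Zfp981, -0.076 to 0.13 in Zfp982, -0.14 to 0.0027 in Skint5, -0.18 to 0.24 in Vmn2r60 and -0.32 to 0.26 in Zfp987. The cause was not tested. With 2 libraries a genotype, counts of called genes depend on the spread borrowed from P40, and in the quintile of genes with the fewest calls 22.8% were called, beside 90.9% in that with the most.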

Other observations

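Large gene families outside the neuronal lists are given beside 58.6% of all genes called higher, though they differed in depth and wild-type level. Cytochrome P450 genes, with median levels of 0.918% and 0.951% in WT 1 and WT 2, had a share of 41.1%. In the fourth P40 decile, with medians of 0.932% and 0.901%, 52.8% of genes were called. Of 50 keratin genes, which build the filaments of epithelia and hair, 36 rose (14 to 29 with 1 library left out), with a pooled level of 1.89% and 1.88% in wild type and 3.65% and 3.92% in the mutant. That ratio, 2.01, was the highest of the 24 lists. Krt76, chosen after its values were seen, went from 1.91% and 2.13% to 5.07% and 6.56% (log2 odds ratio 1.59, adjusted p = 0.00300), and Krt80 from 2.28% and 2.19% to 3.43% and 3.90% (0.74, adjusted p = 0.0340), lost without any 1 library (adjusted p = 0.0650 to 0.165). Of 90 cytochrome P450 genes 37 rose (10 to 21), and Cyp7b1, a steroid hydroxylase, went from 2.18% in both to 3.78% and 3.96% (0.85, adjusted p = 0.00312).

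Sensory receptor genes had low levels. Of 116 tested olfactory receptor genes (of 1095 listed) 24 rose (3 to 19), at 0.868% and 0.894% against 1.62% and 1.49%. Their share was near the 22.8% of the quintile with the fewest calls, and their pooled ratio was 1.77, beside 1.78 over all genes tested. Olfr56 had 1.70% and 1.83% against 3.38% and 3.33% (0.95, adjusted p = 0.00436). Of 137 tested vomeronasal receptor genes (of 300) 20 rose (2 to 11), at 0.640% and 0.647% against 0.900% and 0.836%, with a median log2 odds ratio of 0.21. Of 375 zinc finger (Zfp) genes 116 rose (27 to 74), with a pooled ratio of 1.65. Of 56 clustered protocadherin genes, which overlap and share calls, 20 rose (0 to 12, with 0 in each fit without WT 1, WT 2 or mi5 1), and Pcdha1 had 0.674% and 0.720% against 1.22% and 0.975% (0.67, adjusted p = 0.0441), lost without any 1 library (adjusted p = 0.0553 to 0.276). Of 5 tested histone genes (of 58) 2 rose (0 to 1), H2bc6 (0.73, adjusted p = 0.0185, lost without WT 1, WT 2 or mi5 1 at 0.0763 to 0.133) and H2bc22.

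Small families picked after their values were seen resembled the Skint genes. Over 4 Slc22a27 to Slc22a30 transporter genes the pooled level was 0.465% and 0.448% in wild type and 0.545% and 0.452% in the mutant, with 0 called. Over 9 Nlrp4, Nlrp5 and Nlrp9 genes, which act in oocytes and early embryos, it was 0.430% and 0.443% against 0.479% and 0.441%, with 0 called in the model of 12 libraries and 1 lower in the fit of the 4 libraries. The mutant libraries lay on both sides of a wild-type library in each, and reads from similar copies make these levels uncertain.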
